A study of Saccharomyces cerevisiae with 8 samples.

Results

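The cytosolic small-subunit ribosomal protein genes of budding yeast, Saccharomyces cerevisiae, were followed across 4 groups of RNA-seq libraries. Members were the open reading frames whose standard symbol is RPS with a number, which gave 56 genes of the 6600 open reading frames listed, encoding 32 proteins. Of these proteins, 24 are made from an A and a B gene, and 8 from a single gene. All 56 genes passed the filter on low counts, and 36 of them carry 1 intron in the coding sequence.

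The groups were ceg1-AA/xrn1D with rapamycin (2 libraries), ceg1-AA/xrn1D with DMSO (1 library), ceg1-AA with rapamycin (2 libraries) and ceg1-AA with DMSO (2 libraries). All strains are MATalpha and carry tor1-1, fpr1::NAT, RPL13AxFKB12::TRP and CEG1-FRB::HIS, and the ceg1-AA/xrn1D strain also carries KAN::XRN1. This is the anchor-away system: rapamycin joins the FRB tag on Ceg1, the guanylyltransferase of the mRNA capping enzyme, to the tag on a ribosomal protein that passes through the nucleus, and Ceg1 leaves with it. Cells were grown in YPD at 30 °C, given DMSO or rapamycin at 1 µg/mL for 45 min, and total RNA was sequenced. Every group carries the anchor, and no strain without CEG1-FRB was analysed here, so an effect of rapamycin itself and an effect of Ceg1 removal cannot be told apart. The labels describe 8 samples, of which the second replicate of ceg1-AA/xrn1D with DMSO was not analysed here. They number the replicates without saying that these are separate cultures, so p-values measure the spread between these libraries, which may be technical.

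The small ribosomal subunit reads the mRNA and holds the start codon and the decoding centre. Yeast growing in rich medium devotes a large share of transcription to ribosomal protein genes, which are driven by Rap1 with Fhl1 and Ifh1 and are switched down when TORC1 signalling falls. Most of these genes exist as A and B copies left by an ancient duplication, and many carry an intron although introns are rare in this species. Transcripts that lose or never gain a cap are degraded by nuclear Rat1 and, in the cytoplasm, by Xrn1, the 5′ to 3′ exonuclease that also ends normal mRNA decay.

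The libraries held between 935651 and 3385761 counts, and the ceg1-AA rapamycin libraries were the shallowest. XRN1 had 0 counts in all 3 libraries of ceg1-AA/xrn1D, although the genotype text of the second replicates names XRN3, against 384 and 338 counts in ceg1-AA with rapamycin and 794 and 632 counts in ceg1-AA with DMSO. In MATalpha cells alpha-specific genes are on and a-specific genes are repressed. The alpha-specific pheromone gene MF(ALPHA)1 had 380 to 2907 counts in every library. The other alpha-specific genes listed, STE3, SAG1 and MF(ALPHA)2, had 158 to 1143, 93 to 420 and only 8 to 60 counts. The a-specific pheromone gene MFA1 had 0 counts throughout, and MFA2 and AGA2 had 0 or 1. The a-specific genes STE2, STE6 and BAR1 had 11 to 211, 37 to 517 and 8 to 112 counts, the higher ones in ceg1-AA/xrn1D. These are raw counts and the ceg1-AA/xrn1D libraries were the deepest, so they do not compare the strains. The a-specific list was thus not uniformly silent. In ceg1-AA/xrn1D with rapamycin, replicate 1 stood below replicate 2 for RPS genes by a median of -0.35 on the log2 scale, against -0.02 over all genes tested. Results that rest on this group are therefore given without that library where this moves them.

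RPS transcripts took 3.25% and 3.85% of all counts in ceg1-AA/xrn1D with rapamycin, 4.11% in ceg1-AA/xrn1D with DMSO, 5.35% and 5.71% in ceg1-AA with rapamycin, and 7.26% and 7.28% in ceg1-AA with DMSO. The groups did not overlap, and the 3 ceg1-AA/xrn1D libraries were lower than the 4 ceg1-AA libraries. Within each strain the rapamycin libraries were lower than the DMSO libraries. The 81 genes of the large subunit and its stalk stood in the same order of groups. A share of counts is free of any further scaling, but it also moves with everything else that is in the library. In total RNA, fewer transcripts of a gene per cell and more RNA of other kinds cannot be told apart.

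**Figure D1:**
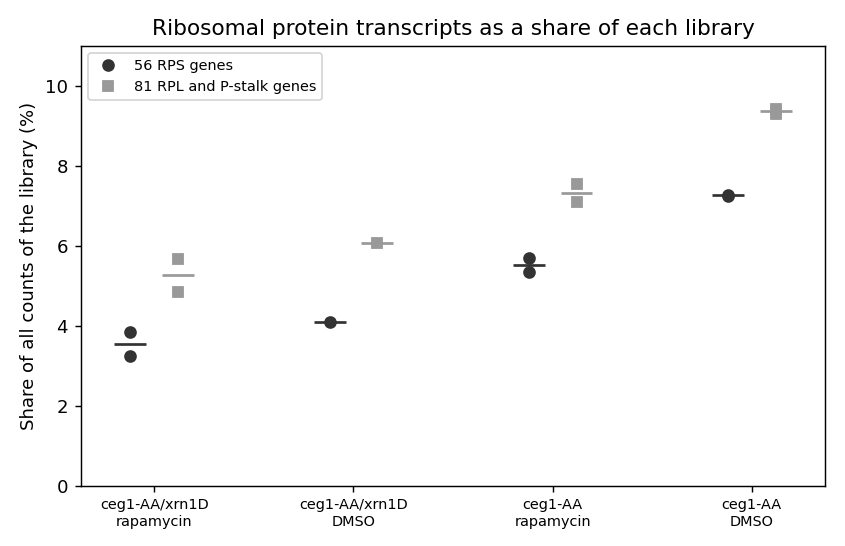
Share of all counts of a library (%, y axis, from 0) held by the 56 RPS genes (dark circles) and by the 81 large-subunit and stalk genes (grey squares) in the 4 groups; each point is a library and each bar the group mean. The RPS share was lowest in ceg1-AA/xrn1D with rapamycin (3.25% and 3.85%) and highest in ceg1-AA with DMSO (7.26% and 7.28%).

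Levels between genes were compared as TPM, the count per length as a part of the library. In ceg1-AA/xrn1D with rapamycin the 56 genes ran from 41.2 to 4811 TPM with a median of 1084, and in ceg1-AA with DMSO from 55.3 to 10607 TPM with a median of 1999. RPS31, which encodes ubiquitin fused to a small-subunit protein, had 4423 and 5200 TPM in ceg1-AA/xrn1D with rapamycin, 4890 TPM in ceg1-AA/xrn1D with DMSO, 9761 and 11330 TPM in ceg1-AA with rapamycin, and 10199 and 11016 TPM in ceg1-AA with DMSO. RPS31 was the highest gene by group mean in 3 of the 4 groups, and in ceg1-AA with rapamycin it came after RPS12, with overlapping values. The values of RPS31 and RPS12 also overlapped in ceg1-AA/xrn1D with rapamycin, where RPS12 was higher in replicate 1. In ceg1-AA/xrn1D with DMSO the order rests on a single library. RPS12, a protein of the beak of the subunit, had 4435 and 4575 TPM in ceg1-AA/xrn1D with rapamycin, 4730 TPM in ceg1-AA/xrn1D with DMSO, 10004 and 12342 TPM in ceg1-AA with rapamycin, and 7539 and 8594 TPM in ceg1-AA with DMSO.

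RPS7B was the lowest gene in all 4 groups, with 37.5 and 45.0 TPM in ceg1-AA/xrn1D with rapamycin, 52.1 TPM in ceg1-AA/xrn1D with DMSO, 64.2 and 49.1 TPM in ceg1-AA with rapamycin, and 60.2 and 50.5 TPM in ceg1-AA with DMSO. RPS29B, a short zinc-binding protein gene, had 82.0 and 115 TPM in ceg1-AA/xrn1D with rapamycin, 113 TPM in ceg1-AA/xrn1D with DMSO, 108 and 69.6 TPM in ceg1-AA with rapamycin, and 172 and 215 TPM in ceg1-AA with DMSO. RPS29B rested on as few as 11 counts in a library, so its values are the least precise. RPS22B, whose intron holds the snoRNA gene SNR44, had 217 and 225 TPM in ceg1-AA/xrn1D with rapamycin, 371 TPM in ceg1-AA/xrn1D with DMSO, 123 and 73.9 TPM in ceg1-AA with rapamycin, and 202 and 179 TPM in ceg1-AA with DMSO. The 4 groups of RPS22B did not overlap, and its order of groups differed from that of RPS genes as a whole. RPS29A and RPS29B were among the 3 lowest genes in both ceg1-AA/xrn1D groups.

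**Figure D2:**
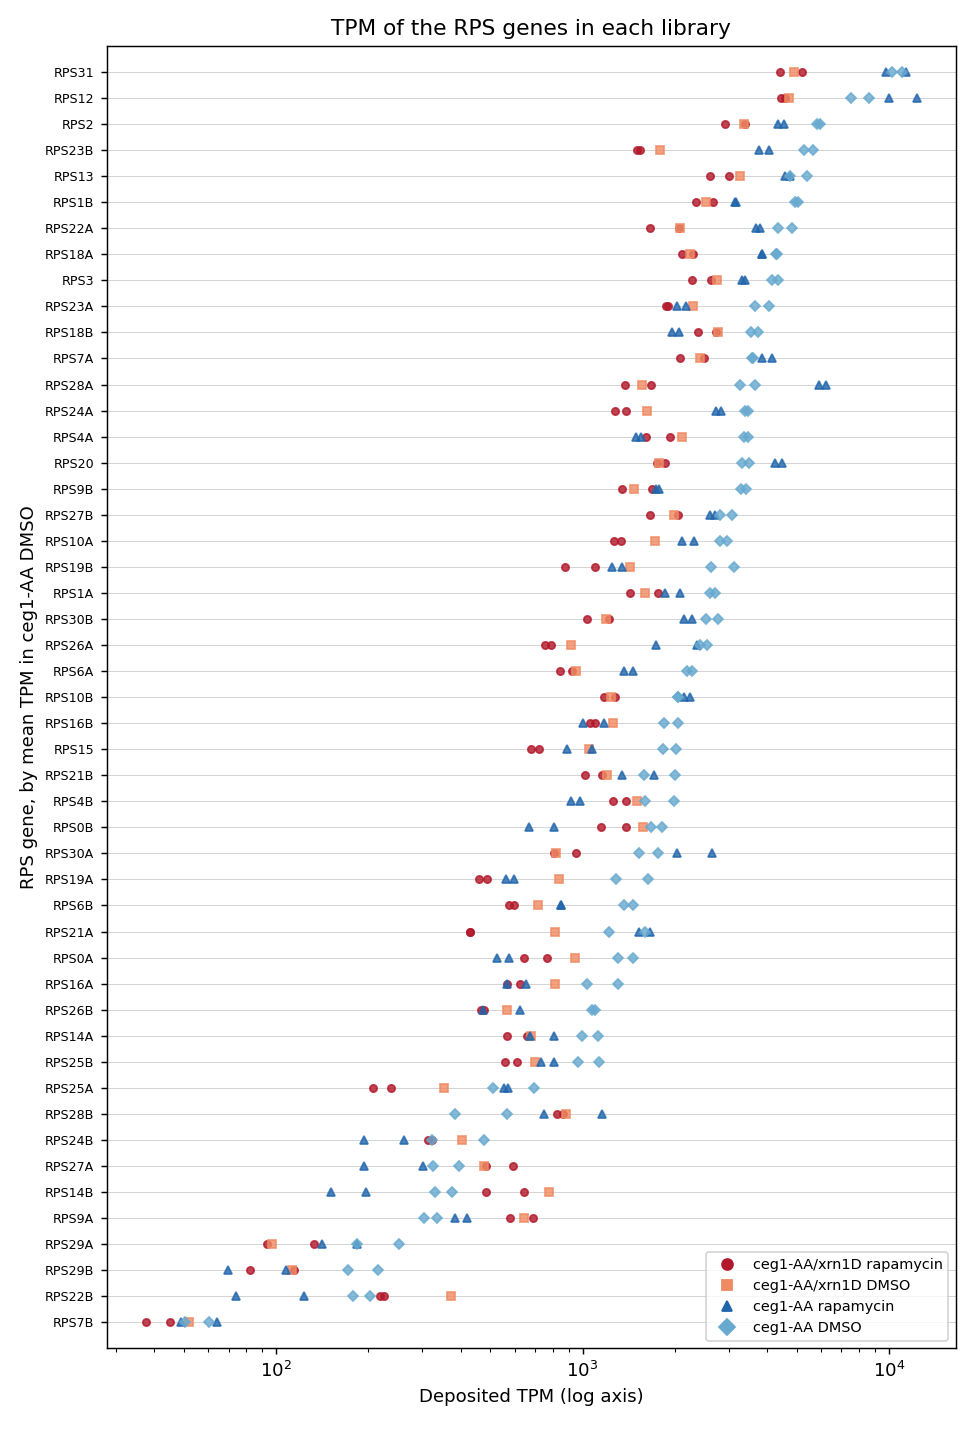
Deposited TPM (x axis, log scale) of 49 of the 56 RPS genes (y axis, ordered by the mean in ceg1-AA with DMSO) in the 7 libraries; each point is a library and its shape and colour give the group. Most genes lie furthest left in ceg1-AA/xrn1D and furthest right in ceg1-AA with DMSO, while RPS14B, RPS9A, RPS22B and RPS27A near the bottom lie further right in ceg1-AA/xrn1D than in ceg1-AA with rapamycin.

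In ceg1-AA, the libraries with rapamycin were set against those with DMSO to ask what happens to RPS transcripts when Ceg1 is taken from the nucleus of cells with Xrn1. RPS genes fell broadly: by edgeR's quasi-likelihood test 46 of 56 were lower and 0 were higher past the threshold, an adjusted p of 0.05, while 48 were under 0.05 before adjustment. Over all 5879 genes tested, 22.8% were called lower and 24.3% higher. The median log2 fold change of RPS genes was -1.0, against 0.11 over all genes tested, and 28 of the 46 fell at least 2-fold. The size of the fall depends on the scaling: the RPS median was -0.49 with total counts alone and -0.44 with limma on TPM, which called 4 and 5 RPS genes higher, and -1.67 with mitochondrial scaling. CPM, counts as a part of the library after TMM scaling, were lower in every pair of libraries for 52 RPS genes and higher in every pair for 2, against 32.6% and 40.8% of all genes tested. The large-subunit genes gave 70 lower of 79 tested, with a median of -0.95. Among the 1176 genes with the highest TPM, of which 1044 are not ribosomal protein genes, 57.7% of those 1044 were lower with a median of -0.65, so part of the distance from the average gene is shared by abundant transcripts.

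Both copies of RPS0 and the A copies of RPS19 and RPS4 were among the 5 largest falls. RPS0A (YGR214W, chrVII:920575-921788), a protein needed for late maturation of the subunit, had 408 and 391 CPM with rapamycin and 1581 and 1415 CPM with DMSO, which is -1.91 ± 0.18 as log2 fold change ± SE (edgeR adjusted p of 3.74e-05). Its copy RPS0B (YLR048W, chrXII:242232-243349) had 569 and 496 CPM with rapamycin and 1966 and 1810 CPM with DMSO (-1.83 ± 0.19, edgeR adjusted p of 5.69e-05). In both genes every rapamycin library was far below every DMSO library. RPS19A (YOL121C, chrXV:92026-92850), the copy of a protein needed for late 18S rRNA processing, had 226 and 223 CPM with rapamycin and 934 and 714 CPM with DMSO (-1.88 ± 0.18, edgeR adjusted p of 4.15e-05). RPS4A (YJR145C, chrX:702027-703068), an early-assembling protein of the body, had 1095 and 1190 CPM with rapamycin and 3887 and 3790 CPM with DMSO (-1.75 ± 0.18, edgeR adjusted p of 6.62e-05). These 4 genes carry an intron, and their libraries did not overlap between treatments. They were chosen by their fall in this comparison, so the separation follows from the choice.

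At the other end stood the 5 genes with the least fall or with a positive value, none of which passed the test. RPS28B (YLR264W, chrXII:673131-673334), whose mRNA is known to be bound by its own protein and decapped through Edc3, had 195 and 140 CPM with rapamycin and 139 and 101 CPM with DMSO, a log2 fold change of 0.48 ± 0.20 (edgeR adjusted p of 0.0711). Its copy RPS28A (YOR167C, chrXV:648804-649007) had 1047 and 1103 CPM with rapamycin and 798 and 964 CPM with DMSO (0.29 ± 0.18, edgeR adjusted p of 0.217). For both copies of RPS28 every rapamycin library lay above every DMSO library, and these were the 2 RPS genes higher in every pair. RPS30A (YLR287C-A, chrXII:712537-713158), a small basic protein, had 418 and 358 CPM with rapamycin and 405 and 380 CPM with DMSO (-0.02 ± 0.16, edgeR adjusted p of 0.941). RPS12 (YOR369C, chrXV:1028194-1028625) had 3738 and 4835 CPM with rapamycin and 4259 and 4719 CPM with DMSO (-0.07 ± 0.19, edgeR adjusted p of 0.795). The treatments overlapped in both RPS30A and RPS12. RPS20 (YHL015W, chrVIII:75412-75777), a head protein, had 1290 and 1468 CPM with rapamycin and 1520 and 1628 CPM with DMSO, without overlap (-0.19 ± 0.17, edgeR adjusted p of 0.366). With total counts alone, which leaves the median gene at 0.62, RPS28B and RPS28A passed the threshold as higher at 0.99 and 0.80, and RPS20, RPS12 and RPS30A turned to 0.32, 0.45 and 0.50. Scaling to mitochondrially encoded genes, which leaves the median gene at -0.57, turned RPS28A and RPS28B to -0.39 and -0.20. The distance between the RPS median and the median of all genes was -1.11. It lay between -1.16 and -1.09 under 9 other settings that left out none of the libraries compared. Settings that change only the scaling move all genes nearly alike, so for them this distance was fixed in advance and is no sign of stability.

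Genes with an intron and genes without were both lower. Of the 36 with an intron 30 fell, with a median of -1.15, and of the 20 without 16 fell, with a median of -0.92. Of the 8 single-copy genes 6 fell, with a median of -0.79, and of the 48 paired genes 40 fell, with a median of -1.04. No test of these differences was made.

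**Figure D3:**
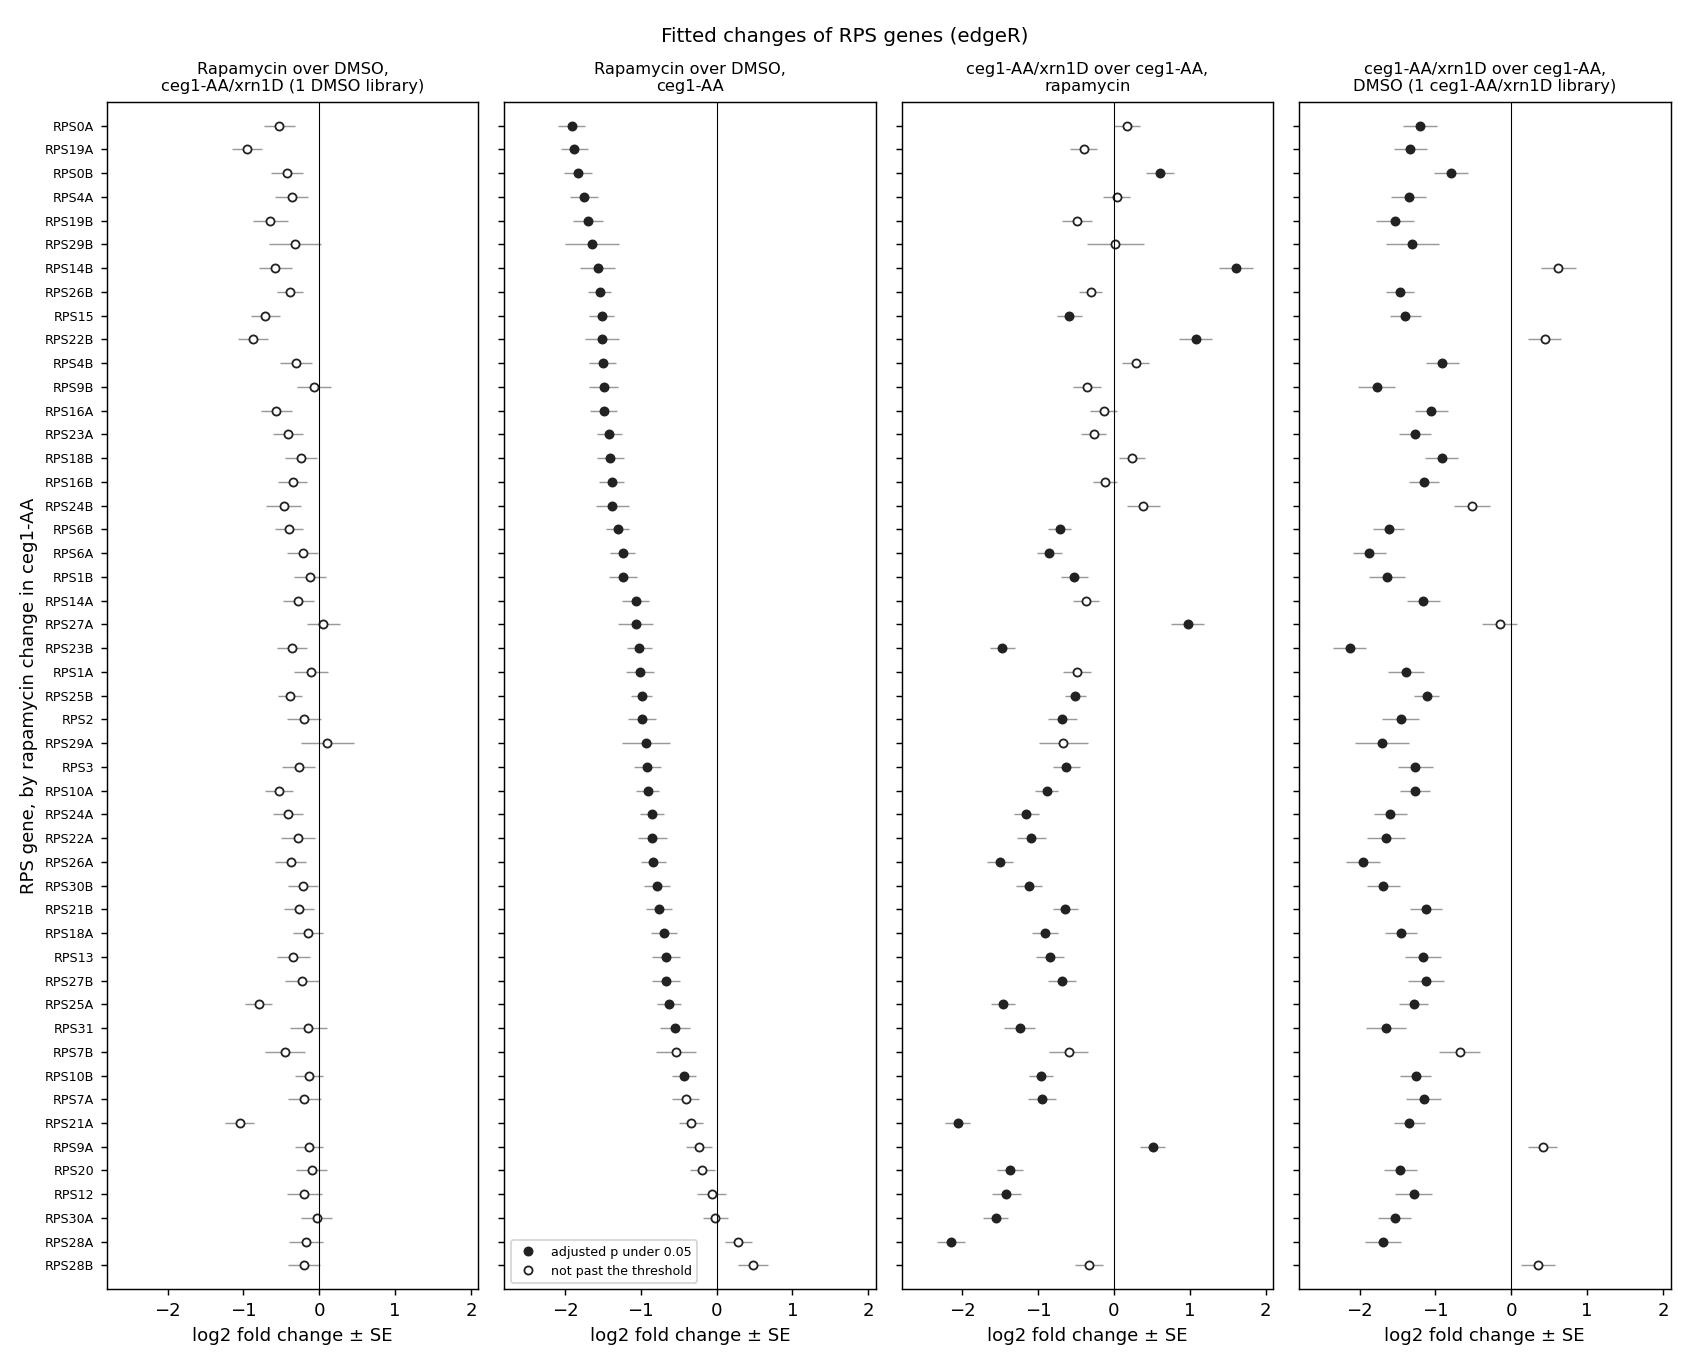
Log2 fold change ± SE from edgeR (x axes) of 49 of the 56 RPS genes (y axis, ordered by the rapamycin change in ceg1-AA) in 4 comparisons; filled points passed an adjusted p of 0.05 and open points did not. Rapamycin against DMSO gave no filled point in ceg1-AA/xrn1D but 40 in ceg1-AA. For the genes drawn, the 2 strain comparisons gave 26 filled points to the left and 5 to the right of 0 under rapamycin, and 42 to the left under DMSO, where the comparison rests on 1 ceg1-AA/xrn1D library.

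In ceg1-AA/xrn1D the same treatment gave smaller values. Against the single DMSO library, which the fit assumes to vary like the libraries of the other groups, 0 RPS genes passed the edgeR threshold, 14 had an unadjusted p under 0.05, and DESeq2 called 3 lower. Over all genes tested 0.034% were called in each direction. The median log2 fold change of RPS genes was -0.29, against 0.0021 over all genes, and 41 of 56 were lower in both pairs of libraries, against 39.2% of all genes. Without ceg1-AA/xrn1D rapamycin replicate 1 the median was -0.13, and without replicate 2 it was -0.46. RPS21A, whose protein sits next to Rps0, had the lowest value, with 82.5 and 91.9 CPM with rapamycin and 181 CPM with DMSO, a log2 fold change of -1.05 ± 0.19 (edgeR adjusted p of 0.0796). RPS19A had 155 and 184 CPM with rapamycin and 328 CPM with DMSO (-0.95 ± 0.20, edgeR adjusted p of 0.118). In these 2 genes both rapamycin libraries lay below the DMSO library. The comparisons in the 2 strains share no library, and 52 RPS genes had a negative value in both. The matching share of all genes was not computed.

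The test of the difference of responses, ceg1-AA/xrn1D minus ceg1-AA, was past the edgeR threshold with a positive value for 22 RPS genes and with a negative value for 0, against 11.9% and 9.66% of all genes tested. A positive value means that the fall with rapamycin was smaller in ceg1-AA/xrn1D, and it again rests on the single DMSO library, assumed to vary like the others. The median over RPS genes was 0.73, against -0.10 over all genes. RPS9B (1.41 ± 0.30, edgeR adjusted p of 0.0105) and RPS0B (1.40 ± 0.29, edgeR adjusted p of 0.00995) were among the 3 largest values of the called genes. Of the 1044 most abundant genes that are not ribosomal protein genes, 36.2% had a positive call, so 22 of 56, or 39.3%, was close to what abundant transcripts did. Leaving out either ceg1-AA rapamycin library, the count of positive RPS calls was 5, without ceg1-AA/xrn1D rapamycin replicate 1 it was 25, without its replicate 2 it was 12, and with total counts alone it was 10 with 3 negative calls.

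The comparison of ceg1-AA/xrn1D with ceg1-AA under DMSO shows how RPS levels stood before Ceg1 was removed. Of 56 RPS genes 49 were lower and 0 higher at an edgeR adjusted p under 0.05, with 51 at an unadjusted p under 0.05, against 20% lower and 19.2% higher over all genes tested. The median was -1.29, against 0.04 over all genes, and 45 of the 49 were at least 2-fold lower. The large-subunit genes gave 71 lower of 79 tested, with a median of -1.18, and of the 1044 most abundant genes that are not ribosomal protein genes 40.5% were lower, with a median of -0.40. Lower in both pairs of libraries were 52 RPS genes and higher in both 4, against 39.5% and 44.1% of all genes. The ceg1-AA/xrn1D side is 1 library, assumed to vary like the libraries of the other groups, and the ceg1-AA DMSO libraries also serve the comparison with rapamycin. All 8 single-copy genes were lower, with RPS31 at -1.65. RPS23B, a copy of a protein of the decoding centre, had 706 CPM in ceg1-AA/xrn1D and 3030 and 3155 CPM in ceg1-AA (-2.13 ± 0.22, edgeR adjusted p of 0.000166). RPS26A, which lines the mRNA exit channel, had 291 CPM in ceg1-AA/xrn1D and 1081 and 1172 CPM in ceg1-AA (-1.95 ± 0.22, edgeR adjusted p of 0.000282). In each of these genes the ceg1-AA/xrn1D library lay far below both ceg1-AA libraries, which follows from choosing them by their values here. Total counts alone, which leave the median gene at 0.58, gave a median of -0.74 for RPS genes and 4 genes called higher.

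Under rapamycin, with 2 libraries a side, ceg1-AA/xrn1D differed from ceg1-AA in both directions. Of 56 RPS genes 29 were lower and 6 higher at an edgeR adjusted p under 0.05, against 22.5% and 21.2% of all genes tested, and the median was -0.59, against 0.02 over all genes. The large-subunit genes gave 41 lower and 4 higher of 79 tested, with a median of -0.51, whereas of the 1044 most abundant genes that are not ribosomal protein genes 19.7% were lower and 36.8% higher. Without ceg1-AA/xrn1D rapamycin replicate 1 the RPS counts were 23 lower and 6 higher, with a median of -0.44. Lower in every pair of libraries were 41 RPS genes and higher in every pair 8, against 36.8% and 38.5% of all genes. In 42 RPS genes the value was negative both here and under DMSO, a comparison that shares no library with this one. The share of all genes with a negative value in both was not computed. RPS28A had 206 and 278 CPM in ceg1-AA/xrn1D and 1047 and 1103 CPM in ceg1-AA (-2.15 ± 0.19, edgeR adjusted p of 2.29e-05). RPS21A (YKR057W, chrXI:551657-552242) had 82.5 and 91.9 CPM in ceg1-AA/xrn1D and 331 and 397 CPM in ceg1-AA (-2.06 ± 0.16, edgeR adjusted p of 1.29e-05). RPS30A, a small basic protein, had 114 and 150 CPM in ceg1-AA/xrn1D and 418 and 358 CPM in ceg1-AA (-1.56 ± 0.17, edgeR adjusted p of 6.79e-05). The libraries of these 3 genes did not overlap between strains, which follows from choosing them by their values in this comparison. Of the single-copy genes 7 of 8 were lower.

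Among the 6 genes higher in ceg1-AA/xrn1D under rapamycin were RPS14B, RPS22B, RPS27A, RPS0B and RPS9A, and all 6 carry an intron. Of the 56 RPS genes 36 carry one, and 16 of those 36 were lower in this comparison. RPS14B (YJL191W, chrX:73787-74611), whose transcript is known to be bound by the Rps14 protein and so kept low when that protein is in excess, had 156 and 232 CPM in ceg1-AA/xrn1D and 70.5 and 56.6 CPM in ceg1-AA, a log2 fold change of 1.61 ± 0.22 (edgeR adjusted p of 0.000248). RPS22B (YLR367W, chrXII:856442-857317) had 65.6 and 76.1 CPM in ceg1-AA/xrn1D and 40.9 and 25.8 CPM in ceg1-AA (1.08 ± 0.22, edgeR adjusted p of 0.0027). RPS27A (YKL156W, chrXI:158613-159212), a zinc-binding protein gene, had 88.1 and 119 CPM in ceg1-AA/xrn1D and 61.9 and 43.7 CPM in ceg1-AA (0.97 ± 0.21, edgeR adjusted p of 0.0042). In each the ceg1-AA/xrn1D libraries lay above the ceg1-AA libraries, which follows from choosing them by their values here. Each is the minor copy of its pair in ceg1-AA. RPS0B (0.61) and RPS9A (0.51) had smaller values. Under DMSO RPS0B was lower in ceg1-AA/xrn1D, with 1088 CPM against 1966 and 1810 CPM in ceg1-AA. RPS27A had 100 CPM in ceg1-AA/xrn1D with DMSO against 117 and 104 CPM in ceg1-AA. Neither gene kept its direction between treatments. The count of higher genes was 3 with ceg1-AA rapamycin replicate 1 left out, 2 with its replicate 2 left out, and 3 with replicate 2 of ceg1-AA/xrn1D rapamycin left out. Under DMSO, RPS14B, RPS22B and RPS9A had positive values of 0.62, 0.44 and 0.41 that did not pass the threshold, and RPS14B came closest (edgeR adjusted p of 0.0518).

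The introns of these genes are shown because the 6 higher genes all have one, as most RPS genes do. RPS9 and RPS14 introns are also known to regulate their own pair. The 36 introns are 256 to 551 bases long, with a median of 408.5, and all 36 end in AG. Of them 24 start with GTATGT, 9 with GTACGT and 3 with GTATGA, and 33 hold TACTAAC, the branch point sequence. The starts of 5 introns are given on the coding strand in build R64, with the first 6 intron bases in capitals.
RPS14A, minus strand, chrIII:178200-178223: gccatgtctaGTATGTttaatcac
RPS14B, plus strand, chrX:73787-73810: atggctaacgGTACGTgaaagggg
RPS9A, plus strand, chrXVI:404947-404970: aacatgccaaGTACGTcgttaatc
RPS9B, plus strand, chrII:604505-604528: acaatgccaaGTACGTattagact
RPS22B, plus strand, chrXII:856565-856588: caaaagcatgGTATGTtccaacta

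In the RPS14 pair the A copy starts its intron with GTATGT and the B copy with GTACGT. The 2 RPS9 copies share the less common GTACGT, and neither holds TACTAAC, which RPS21A also lacks. The branch points of 3 genes that were higher in ceg1-AA/xrn1D under rapamycin are given with TACTAAC in capitals.
RPS14B, plus strand, chrX:74166-74188: gttctgttTACTAACaactatac
RPS22B, plus strand, chrXII:857026-857048: ttcttcaaTACTAACatttactc
RPS27A, plus strand, chrXI:158920-158942: aggaagttTACTAACagttagat
The counts are per open reading frame of coding length, so unspliced and spliced transcripts were not told apart.

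Upstream of the start codon, 18 of 56 RPS genes (32.1%) held the letters ACCCNNACA, a core of the Rap1 site, on either strand within 500 bases, against 5.5% of 6006 genes. A core of the Abf1 site stood in 1.8% against 3.3%, and the Tbf1 letters ACCCTAA in 1.8% against 4.1%. With rapamycin in ceg1-AA, 17 of the 18 genes with the Rap1 letters fell, with a median of -1.02, and 29 of the 38 without fell, with a median of -0.96. No match says only that these letters are not in the window. RPS0B and RPS4A, also among the 5 largest falls, held no such letters in the window. Windows of RPS0A and RPS19A, which had the largest falls, are shown in build R64 with the Rap1 letters in capitals.
RPS0A, plus strand, chrVII:920075-920155: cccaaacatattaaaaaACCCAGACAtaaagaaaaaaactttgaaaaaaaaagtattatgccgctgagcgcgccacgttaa
RPS19A, minus strand, chrXV:93033-93152: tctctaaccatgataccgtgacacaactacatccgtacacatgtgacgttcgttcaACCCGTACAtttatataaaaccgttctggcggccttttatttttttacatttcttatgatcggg
The match starts 483 bases before the start codon of RPS0A and 246 bases before that of RPS19A.

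The A and B copies of a pair encode near-identical proteins, so the ratio of their counts within a library shows which copy supplies the mRNA and needs no scaling between libraries. The coding sequences of the 24 pairs are 84.3% to 99.2% identical, with a median of 92.75%, and how the authors assigned reads that fit both copies is not given in the sources used here. Its effect on the ratios was not tested. The stretches of 60 coding bases where the copies of 3 pairs differ most are shown, since only reads over such bases can tell the copies apart. Build R64 was used, the sequences read along the coding strand, and capitals mark the bases that differ between A and B.
RPS9A, plus strand, chrXVI:405670-405729: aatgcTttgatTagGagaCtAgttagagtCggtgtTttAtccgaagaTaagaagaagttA
RPS9B, plus strand, chrII:605140-605199: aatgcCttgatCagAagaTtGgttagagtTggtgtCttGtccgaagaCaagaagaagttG
RPS14A, minus strand, chrIII:177833-177892: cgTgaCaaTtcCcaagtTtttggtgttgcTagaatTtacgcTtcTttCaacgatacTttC
RPS14B, plus strand, chrX:74219-74278: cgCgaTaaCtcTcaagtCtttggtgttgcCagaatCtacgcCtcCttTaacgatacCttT
RPS22A, minus strand, chrX:75201-75260: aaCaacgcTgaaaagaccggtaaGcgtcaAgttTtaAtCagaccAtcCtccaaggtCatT
RPS22B, plus strand, chrXII:856484-856543: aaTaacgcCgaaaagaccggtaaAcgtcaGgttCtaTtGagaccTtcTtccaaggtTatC

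In these windows the copies of RPS14 differ at 12 of 60 bases, those of RPS22 at 11 and those of RPS9 at 10. The A copy was higher in every library for 8 pairs, the B copy for 7, and 9 pairs were mixed. The share of the A copy is given below as its part of the TPM of the pair. The tests are limma's on log2 count ratios over all 60 A and B named pairs of the yeast table, with Benjamini-Hochberg adjustment. The 24 RPS pairs are part of these 60, so shares over the 60 are not a separate background.

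Under DMSO the ratio differed between strains in 13 of 24 RPS pairs, 3 toward A and 10 toward B in ceg1-AA/xrn1D, against 16.7% and 41.7% of the 60 pairs. The RPS counts were near the shares over the 60 pairs, so these shifts are not shown to be particular to RPS pairs. The ceg1-AA/xrn1D library stands alone and is assumed to vary like the others. RPS9, an early-assembling protein that takes part in the accuracy of decoding, had an A share of 30.4% in ceg1-AA/xrn1D and of 9.28% and 8.16% in ceg1-AA, a log2 difference of the ratio of 2.19 ± 0.17 (SE; limma adjusted p of 4.14e-08). RPS14, a protein of the platform, had an A share of 46.7% in ceg1-AA/xrn1D and of 75% and 75.2% in ceg1-AA (-1.78 ± 0.22, limma adjusted p of 4.51e-06). The minor copy of ceg1-AA, RPS9A or RPS14B, held a larger part of its pair in ceg1-AA/xrn1D. RPS23 had an A share of 56.2% in ceg1-AA/xrn1D and of 41.0% and 41.9% in ceg1-AA (0.86 ± 0.11, limma adjusted p of 5.39e-06). RPS22, a protein that joins the subunit early, had an A share of 84.9% in ceg1-AA/xrn1D and of 95.6% and 96.4% in ceg1-AA (-2.10 ± 0.33, limma adjusted p of 6.04e-05). RPS28 had an A share of 64% in ceg1-AA/xrn1D and of 85.2% and 90.5% in ceg1-AA (-2.06 ± 0.32, limma adjusted p of 0.000111). In all 5 pairs the ceg1-AA/xrn1D library lay outside the range of the ceg1-AA libraries. These 5 were chosen by their adjusted p in this comparison, so the separation follows from the choice and is no further test. Without ceg1-AA DMSO replicate 2 the pairs called toward B were 6.

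Under rapamycin 17 RPS pairs differed between strains, 4 toward A and 13 toward B in ceg1-AA/xrn1D, against 25% and 43.3% of the 60 pairs. RPS23 had an A share of 54.9% and 55.8% in ceg1-AA/xrn1D and of 35.1% and 34.8% in ceg1-AA (1.21 ± 0.09, limma adjusted p of 4.9e-09). RPS18, a head protein, had an A share of 47.1% and 45.8% in ceg1-AA/xrn1D and of 66.4% and 65.1% in ceg1-AA (-1.15 ± 0.09, limma adjusted p of 1.3e-08). In RPS23 and RPS18 the major copy differed between the strains. RPS14 had an A share of 53.9% and 50.6% in ceg1-AA/xrn1D and of 80.4% and 81.7% in ceg1-AA (-1.96 ± 0.18, limma adjusted p of 5.05e-08). RPS22, with -2.21 ± 0.27, had the largest shift toward B and RPS27, with 1.67 ± 0.24, the largest toward A (limma adjusted p of 1.32e-06 and 1.18e-05). The strain comparisons under the 2 treatments share no library, and 21 of 24 RPS pairs had the same sign in both. The matching count over the 60 pairs was not computed, so this is not shown to be particular to RPS pairs.

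**Figure D4:**
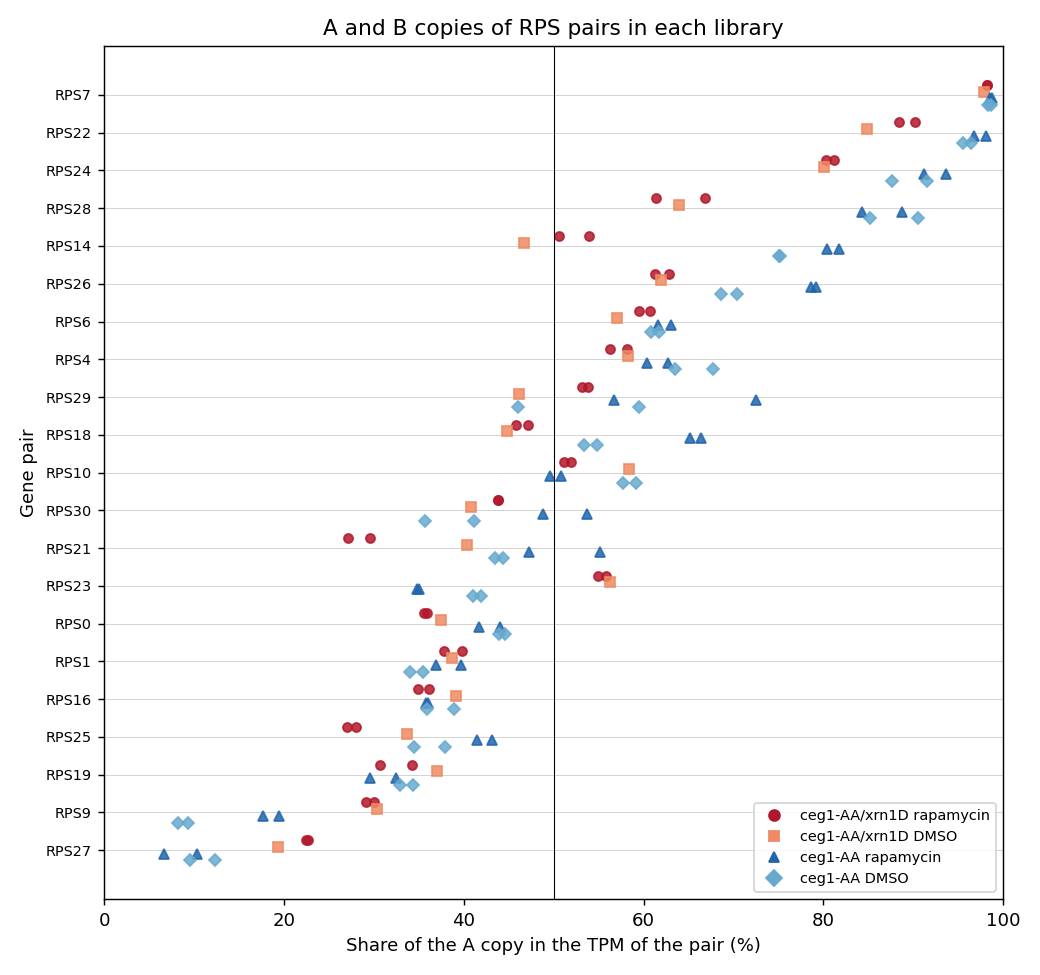
Share of the A copy in the TPM of its pair (%, x axis from 0 to 100) for 21 of the 24 RPS pairs (y axis, ordered by the median over libraries) in the 7 libraries; each point is a library and its shape and colour give the group. RPS14, RPS28 and RPS22 lie further left in all 3 ceg1-AA/xrn1D libraries than in the 4 ceg1-AA libraries, and RPS9, RPS23 and RPS27 lie further right.

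Pairs dominated by either copy were examined further. In 9 pairs, among them RPS7, RPS9, RPS14, RPS22, RPS24, RPS26, RPS27 and RPS28, the lesser copy held under 25% of the pair in ceg1-AA with rapamycin. These libraries do not enter the DMSO comparison of strains. They are of the same strain as its reference, however, so the choice is not independent of it. Under DMSO all 9 shifted toward the lesser copy in ceg1-AA/xrn1D, and 8 of these were called. Among the other 15 pairs 12 shifted toward the lesser copy, 4 of them called, and 1 was called in the other direction. The lesser copy is A in RPS9 and RPS27 and B in the other 7. Choosing pairs that are skewed in ceg1-AA favours a shift toward the lesser copy in the other strain. The matching counts over the 60 pairs were not computed, so no conclusion is drawn from these shifts.

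With rapamycin in ceg1-AA, 13 of 24 RPS pairs shifted, 9 toward A and 4 toward B, against 35.0% and 23.3% of the 60 pairs. The RPS counts were near these shares, so the shifts are not shown to be particular to RPS pairs. RPS9 had an A share of 19.5% and 17.7% with rapamycin and of 9.28% and 8.16% with DMSO (1.26 ± 0.14, limma adjusted p of 1.2e-06). Its B copy fell, while its A copy did not pass the test. RPS18 had an A share of 66.4% and 65.1% with rapamycin and of 54.8% and 53.3% with DMSO (0.71 ± 0.09, limma adjusted p of 7.57e-06). RPS26 had an A share of 79.1% and 78.7% with rapamycin and of 68.6% and 70.4% with DMSO (0.71 ± 0.13, limma adjusted p of 0.000168). The treatments did not overlap in any of these 3 pairs, which were likewise chosen by their adjusted p in this comparison. Without ceg1-AA DMSO replicate 2 or without ceg1-AA rapamycin replicate 2 the pairs called toward A were 5.

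In ceg1-AA/xrn1D only RPS21 passed the limma threshold with rapamycin, with 0.0% and 1.67% of the 60 pairs called toward A and toward B, and 3 RPS pairs had an unadjusted p under 0.05. RPS21 had an A share of 29.6% and 27.1% with rapamycin and of 40.3% in the single DMSO library, assumed to vary like the others (-0.77 ± 0.19, limma adjusted p of 0.043). This call was lost without ceg1-AA/xrn1D rapamycin replicate 2, with a value of -0.68 (limma adjusted p of 0.304), with the replicate block, with -0.81 (limma adjusted p of 0.245), and without the prior trend (limma adjusted p of 0.489). RPS10 had -0.40 ± 0.13 (limma adjusted p of 0.143). A test of the difference of the ratio responses between strains, added after the other ratios had been seen, was past the threshold toward A for 1 pair and toward B for 6, among them RPS9, RPS18, RPS21 and RPS26, against 11.7% and 21.7% of the 60 pairs.

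Genes that act on the small subunit or on RPS promoters were set beside these results. Of 18 factors of late subunit maturation, 14 were lower and 0 higher in ceg1-AA/xrn1D than in ceg1-AA under rapamycin, with a median of -0.97, against 22.5% lower and 21.2% higher over all genes tested. Under DMSO 12 were lower and 0 higher, against 20% and 19.2%. Under rapamycin TSR3, which modifies 18S rRNA, SLX9, an export factor, and LTV1, which holds the beak before export, had the lowest values (-1.68 ± 0.22, -1.68 ± 0.22 and -1.66 ± 0.14, with edgeR adjusted p of 0.000227, 0.000186 and 2.1e-05). With rapamycin in ceg1-AA the same list gave 3 lower genes, YAR1, DIM1 and TSR4, and 2 higher, SLX9 and HRR25, with a median of -0.16, against 22.8% lower and 24.3% higher over all genes tested. It thus did not share the median of -1.0 of the RPS genes there. Of 12 regulators of ribosomal protein genes, 5 were higher with rapamycin in ceg1-AA (CRF1, SCH9, ESA1, SFP1 and FHL1, between 0.51 and 1.01), against the same 24.3% of all genes, and RAP1 was lower at -0.45 ± 0.14 (edgeR adjusted p of 0.022). In ceg1-AA/xrn1D against ceg1-AA, 5 of the 12 were lower under rapamycin and, under DMSO, RAP1 was lower while CRF1 and SFP1 were higher, with the same shares of all genes as for the maturation factors. ASC1, the RACK1 protein of the 40S head, and STM1, which occupies idle ribosomes, fell with rapamycin in ceg1-AA (-0.76 ± 0.19 and -1.01 ± 0.16, edgeR adjusted p of 0.00803 and 0.000631) and were lower in ceg1-AA/xrn1D under both treatments. No RPS-wide test of these lists was made.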

How the data were processed

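Per the submitters' processing notes, reads were handled with FastQC 0.11.5, HISAT2 2.1.1, SAMtools 1.15.1 and DESeq2 on builds named R64 and sacCer3, without a role for each. The deposited counts are whole, not normalized, and given per open reading frame. The deposited TPM values are the authors' length-scaled values. The counting program, its use of strand and its handling of reads that fit several genes are not given in the sources used here, so members of near-identical pairs have uncertain counts. Names, coordinates and sequences came from R64, in which 5917 of 6600 identifiers were found. File lengths equal the coding length for all 56 members.

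Counts were fitted with edgeR 4.0.16 in R 4.3.3: filterByExpr left 5879 genes, TMM scaled the libraries, and the quasi-likelihood fit had 1 coefficient per group over 7 libraries. Adjusted p values are Benjamini-Hochberg over all genes tested, with a threshold of 0.05. CPM values are scaled by TMM. A:B ratios were log2 count ratios with a pseudocount of 0.5, fitted with limma 3.58.1 over the 60 of 61 A and B named pairs in which both copies had a mean count of at least 20. Coding alignments used Biopython 1.88. The scripts were tested on simulated data.

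Groups and replicate numbers came from sample titles. Alternatives were total counts alone, DESeq2 size factors, TMM without ribosomal protein genes, no filter, a replicate block, DESeq2 1.42.0, limma on log2(TPM + 1), the compared libraries alone, mitochondrial scaling, other ratio settings, and each replicate left out. The members, gene lists and tests were chosen with earlier results of these data known. Full values were given for the 5 largest falls and the 5 least falls or rises with rapamycin in ceg1-AA, 3 each way between strains under rapamycin, up to 3 called each way in comparisons with the single library, the 5 ratios with the smallest adjusted p per comparison, and the 3 highest and lowest genes by TPM. Some of these are not reported here. Values of RPS21A and RPS19A beyond this, and the motif, intron and lesser-copy counts, were chosen after their values were seen. Library totals of 935651 to 3385761 counts limit low genes such as RPS29B.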

Additional observations from a re-analysis of the deposited data

Results flagged for a closer look

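The rapamycin response differed between the strains, by the edgeR test of the difference itself, for 22 RPS genes. All 22 values are positive, so the fall was smaller in ceg1-AA/xrn1D, and each rests on the single ceg1-AA/xrn1D DMSO library, assumed to vary like the libraries of the other groups. The ceg1-AA DMSO libraries, in which RPS levels were highest, also enter every one of them. As given above, abundant genes that are not ribosomal protein genes had a similar share of positive calls. The count of RPS calls also changed much when a library was left out. Values of 18 of the 22 are given, and the highest of all is not among them. The difference on the log2 scale was 1.41 for RPS9B, 1.40 for RPS0B, 1.39 for RPS4A and 1.38 for RPS0A. It was 1.20 for RPS4B, 1.16 for RPS18B, 1.16 for RPS26B, 1.12 for RPS27A and 1.11 for RPS1B. It was 1.05 for RPS19B, 1.04 for RPS16B, 1.02 for RPS6A and 1.01 for RPS23A. The smallest given were 0.93 for RPS19A, 0.92 for RPS16A, 0.90 for RPS1A, 0.90 for RPS6B and 0.80 for RPS15. Over all genes tested 11.9% had a positive call. Both copies of RPS0, RPS1, RPS4, RPS6, RPS16 and RPS19 are among the 22, and for RPS9 the B copy alone is.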

How the results depend on the processing

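Of the counts and medians recomputed, 207 stayed within their limits and 34 moved, and the cause was not tested. The limit was a fixed fold for counts. For medians it was the largest standard deviation between replicates of the RPS median. Counts of 0 that stayed at 0 are among the 207, so the tally is not a measure of stability. Total counts alone gave, with rapamycin in ceg1-AA, 4 higher genes and a median of -0.49, for the strains under DMSO 4 higher and a median of -0.74, and for the difference of responses 10 higher, 3 lower and a median of 0.28. limma on TPM gave 30 lower, 5 higher and a median of -0.44 with rapamycin in ceg1-AA, 4 higher and a median of -0.74 for the strains under DMSO, and 8 higher, 2 lower and a median of 0.28 for the difference of responses. These settings left the median of all genes with rapamycin in ceg1-AA at 0.62 and 0.72. Mitochondrial scaling gave a median of -1.67, no filter gave 1 higher gene for the strains under DMSO, and DESeq2 gave 3 lower genes with rapamycin in ceg1-AA/xrn1D. No ratio shifted toward B there without the prior trend (0) or with the replicate block (0).

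Single genes turned sign with rapamycin in ceg1-AA: RPS20 at 0.32, RPS12 at 0.45 and RPS30A at 0.50 with total counts alone, 0.36, 0.47 and 0.50 with limma on TPM, and RPS28A at -0.39 and RPS28B at -0.20 with mitochondrial scaling. With a library left out, RPS30A lay between -0.13 and 0.088 (0.03 without ceg1-AA DMSO replicate 1, 0.088 without rapamycin replicate 2), and RPS12 between -0.27 and 0.11 (0.0065 without DMSO replicate 2, 0.11 without rapamycin replicate 1). None of these passed the threshold in the reported fit.

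Leaving out a library gave 37 to 45 lower and 0 to 1 higher with rapamycin in ceg1-AA, 23 to 34 lower and 2 to 6 higher between strains under rapamycin, 49 to 51 lower and 0 to 2 higher under DMSO, and 5 to 25 higher and 0 to 2 lower for the difference of responses. Ratio calls with rapamycin in ceg1-AA were 5 to 11 toward A, those between strains under DMSO 6 to 7 toward B, and those with rapamycin in ceg1-AA/xrn1D 0 to 1 toward B. Where a group was left with a lone library, it was assumed to vary like the other groups. The median of -0.29 in ceg1-AA/xrn1D lay between -0.46 and -0.13, and under 3 other scalings without replicate 1 it was -0.12, -0.16 and -0.16, added after seeing the data.

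Differences of log2 CPM, replicate 1 minus replicate 2 within a group, were correlated between groups over all genes tested. The values were 0.131 for ceg1-AA DMSO with ceg1-AA rapamycin and -0.149 for ceg1-AA DMSO with ceg1-AA/xrn1D rapamycin. For ceg1-AA rapamycin with ceg1-AA/xrn1D rapamycin the value was -0.027. These weak values give no sign that the numbers pair the libraries, but they cannot settle it. With the replicate block 46 RPS genes were lower with rapamycin in ceg1-AA, 31 lower and 6 higher between strains under rapamycin, 49 lower under DMSO, and 16 positive for the difference of responses. The limits are 2 libraries a group or fewer, 1 in ceg1-AA/xrn1D with DMSO, and the low total counts of ceg1-AA with rapamycin, 962326 and 935651.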
